A study of Mus musculus with 6 samples.

Results

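The signal transducers and activators of transcription (STATs) studied here are 6 of the 11241 named genes in the authors' gene-level table: Stat2, Stat3, Stat4, Stat5a, Stat5b and Stat6. They were taken by name, without regard to any measured value, and their 41 annotated transcripts were followed in the transcript files. mRNA was measured by poly-A RNA sequencing of naive CD4+ T cells, isolated with magnetic beads from spleen and lymph nodes of C57BL/6 mice aged 8 to 10 weeks and cultured under Th9 conditions, which favor IL-9-producing helper T cells. The WT group (3 samples) came from Cul5 fl/fl littermates without Cre, and the Cul5 cKO group (3 samples) from Cul5 fl/fl CD4-Cre mice, so that both groups carried the floxed Cul5 allele. CD4-Cre acts during thymic development, so the deletion was in place before the cells were put in culture and is not limited to CD4+ T cells. Both groups received plate-bound anti-CD3 at 2 µg/ml, anti-CD28 at 1 µg/ml, IL-4 at 20 ng/ml, TGF-β at 2.5 ng/ml and anti-IFN-γ at 10 µg/ml for 48 h. The labels number the replicates of each genotype but do not say whether a number stands for a separate mouse, and the samples came from 1 experiment. The p-values therefore measure only the spread between these samples.

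STAT proteins wait in the cytoplasm, are phosphorylated on a tyrosine by Janus kinases (JAKs) bound to a cytokine receptor, pair up and enter the nucleus to switch on genes. In helper T cells IL-4 acts mainly through STAT6, IL-2 through STAT5A and STAT5B, IL-6, IL-10 and IL-21 through STAT3, IL-12 through STAT4, and type I interferon through STAT2 with its partner IRF9. Cul5 is the scaffold of a ubiquitin ligase that uses SOCS-box proteins, among them the cytokine signaling inhibitors CIS and SOCS1, to choose its substrates. What follows concerns mRNA, and neither STAT protein nor its phosphorylation was analysed here.

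Total estimated counts were 3944803 in WT replicate 3 and between 23111689 and 23454552 in the other 5 samples. Levels are estimated counts scaled to the library size (CPM), which was adjusted by the trimmed mean of M values (TMM). Differences are log2 of Cul5 cKO over WT tested over 12925 genes by the quasi-likelihood method of edgeR, with p-values adjusted after Benjamini and Hochberg. Of these, 133 (1.03%) were called at an adjusted p under 0.05, 79 (0.611%) higher and 54 (0.418%) lower in Cul5 cKO cells. That number depended on single samples, from 2 calls when WT replicate 2 or 3 was left out to 316 when WT replicate 1 was. Cul5 itself stood at 64.4, 69.3 and 65.0 CPM in WT replicates 1, 2 and 3 and at 10.6, 14.2 and 13.1 CPM in the Cul5 cKO replicates, a log2 difference of -2.39 (SE 0.115, edgeR adjusted p = 0.000992). All 8 CD4 T cell markers were above 3 counts in every sample, with a summed level of 1778 to 1972 CPM in WT and 1609 to 1750 CPM in Cul5 cKO cells. The 3 CD8 T cell markers summed to 4.30 to 11.7 CPM, the 7 myeloid markers to 2.59 to 13.2 CPM (C1qa at 0 in all 6 samples), the 4 NK cell markers to 4.12 to 13 CPM (Ncr1 and Klra8 at 0) and the 4 erythroid markers to 0 to 1.44 CPM. The 5 B cell markers summed to 6.49 to 19.2 CPM in 5 samples and to 48.0 CPM in Cul5 cKO replicate 3, and the part of these cells in any STAT level was not tested. The 6 Th9 markers summed to 1841 to 2006 CPM in WT and 2341 to 2935 CPM in Cul5 cKO cells. The members of this list differed in direction, with Il9 at 297.6 to 355.4 CPM in WT and 728.6 to 1021 CPM in Cul5 cKO cells and Ccr6 at 12.1 to 16.3 and 4.82 to 7.03 CPM.

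None of the 6 STAT genes was called between Cul5-deficient and WT cells, beside 1.03% of all genes tested. Stat4 differed most, at 0.549 times the WT level (95% interval 0.403 to 0.749), and each Cul5 cKO sample lay under each WT sample. For the other 5 genes the estimated fold lay between 0.876 for Stat5a and 1.11 for Stat3, with intervals that include 1. At an unadjusted p under 0.05, 1 of the 6 genes passed, Stat4, beside 21.3% of all genes tested.

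**Figure D1:**
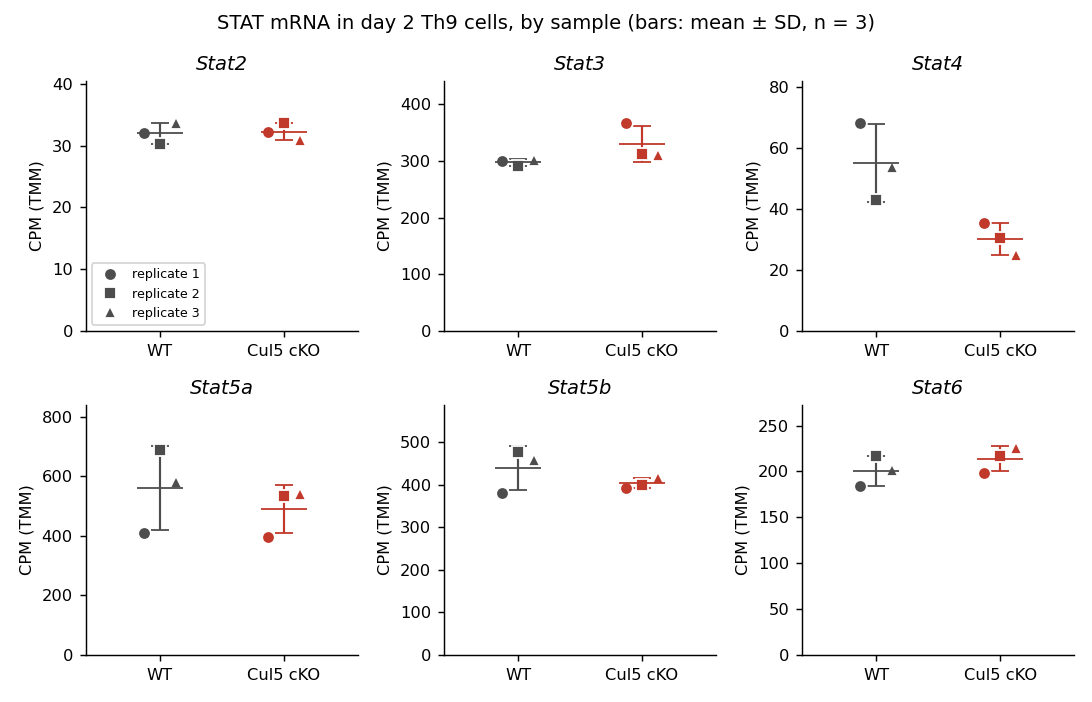
CPM (TMM-adjusted, each axis from 0) of the 6 STAT genes in the 3 WT (grey) and 3 Cul5 cKO (red) samples, with the mean as a line, the SD as bars and 1 symbol for each replicate number. Stat4 lies at 43.1 to 68.4 CPM in WT and 24.9 to 35.4 CPM in Cul5 cKO cells, and replicate 1 is the lowest sample of both groups for Stat5a, Stat5b and Stat6.

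Stat6, the factor of the IL-4 receptor, lies on chromosome 10 (127642986 to 127660957, plus strand, GRCm38; ENSMUSG00000002147). Its level was 183.8, 216.3 and 201.7 CPM in WT replicates 1, 2 and 3 and 198.7, 217.1 and 225.1 CPM in Cul5 cKO replicates 1, 2 and 3. The groups overlapped, and the highest of the 6 values was in Cul5 cKO replicate 3. The log2 difference was 0.09 (SE 0.0824; edgeR adjusted p = 0.564), and its 95% interval ran from 0.932-fold to 1.22-fold. The transcript Stat6-201 held 97.1% ± 0.993 (SD, n = 3) of the gene's estimated counts in WT and 97.5% ± 0.717 (SD, n = 3) in Cul5 cKO cells. Stat6-204 and Stat6-205, short forms with a retained intron, made up 1.83% and 1.10% of the counts in WT cells and 1.66% and 0.811% in Cul5 cKO cells.

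Stat5a and Stat5b encode the paralogous factors of IL-2 and other cytokines that use the common gamma chain. They lie beside each other on chromosome 11, Stat5b on the minus strand (100780731 to 100850724; ENSMUSG00000020919) and Stat5a on the plus strand (100859351 to 100885169; ENSMUSG00000004043), with 8626 bases between them. Their coding sequences, of 2358 and 2379 bases, are identical over up to 324 bases in a row. Of all 50-base words (the read length) of the Stat5a coding sequence, 26.1% also occur in that of Stat5b. Over all annotated exons, 11.5% of the 31-base words of Stat5a (the word length kallisto uses by default) are found in Stat5b and 15.1% of those of Stat5b in Stat5a. Reads from such stretches are divided between the genes by estimate, so their sum was followed too. Among identical runs taken at their full length, the longest that crosses no exon border in either gene has 89 bases. It lies at coding positions 1492 to 1580 and is shown because a 50-base read inside it fits both genes equally (GENCODE transcripts of GRCm38):
Stat5a, chr11:100879629-100879717, plus strand: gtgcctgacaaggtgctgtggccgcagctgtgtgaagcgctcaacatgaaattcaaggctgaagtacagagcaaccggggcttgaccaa
Stat5b, chr11:100790847-100790935, minus strand: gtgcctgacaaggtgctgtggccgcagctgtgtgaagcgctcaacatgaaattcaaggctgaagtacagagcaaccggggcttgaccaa

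By contrast, the 90-base window with the most differences within 1 exon of both genes, at coding positions 1971 to 2060, held 22 of them, marked by capitals, and a read from it can be placed:
Stat5a, chr11:100881094-100881183, plus strand: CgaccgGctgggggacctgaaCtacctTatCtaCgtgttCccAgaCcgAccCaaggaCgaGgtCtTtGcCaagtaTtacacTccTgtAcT
Stat5b, chr11:100787226-100787315, minus strand: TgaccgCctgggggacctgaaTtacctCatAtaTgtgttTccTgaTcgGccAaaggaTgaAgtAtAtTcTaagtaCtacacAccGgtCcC

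Stat5a was at 407.7, 686.9 and 581.9 CPM in WT replicates 1, 2 and 3 and at 396.0, 532.2 and 539.5 CPM in Cul5 cKO replicates 1, 2 and 3. The groups overlapped, and replicate 1 was the lowest in both genotypes. The mean of both replicate 1 samples was 401.8 CPM beside 585.1 CPM over the other 4, a log2 difference of -0.54 that exceeds the difference between genotypes. That difference was -0.19 (SE 0.198, 95% interval 0.635-fold to 1.21-fold; edgeR adjusted p = 0.617). Stat5b was at 380.8, 477.8 and 459.1 CPM in WT and at 393.5, 400.8 and 416.7 CPM in Cul5 cKO cells. The WT samples lay on both sides of the Cul5 cKO samples, which differed little among themselves, and the log2 difference was -0.12 (SE 0.0902, 95% interval 0.795-fold to 1.06-fold; edgeR adjusted p = 0.480). The sum of both genes was 788.5, 1165 and 1041 CPM in WT and 789.5, 933.0 and 956.2 CPM in Cul5 cKO cells. With the counts merged into 1 row the log2 difference was -0.16 (SE 0.145, 95% interval 0.708-fold to 1.13-fold; edgeR adjusted p = 0.564), between the values of the separate genes, and the groups overlapped. The ratio of Stat5a to Stat5b in length-scaled level (TPM) was 2.02 ± 0.362 (SD, n = 3) in WT and 1.96 ± 0.320 (SD, n = 3) in Cul5 cKO cells (exact permutation p = 0.900, two-sided).

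Stat3, the factor of IL-6, IL-10 and IL-21 signals, follows on chromosome 11 (100885098 to 100939540, minus strand; ENSMUSG00000004040), where its 3′ end overlaps that of Stat5a by 72 bases through the transcript Stat3-202. Whether the library kit kept the strand is not given in the sources used here, so reads from these 72 bases cannot be told apart. Stat3 was at 300.1, 290.2 and 301.2 CPM in WT replicates 1, 2 and 3 and at 366.9, 312.5 and 309.3 CPM in Cul5 cKO replicates 1, 2 and 3. The groups did not overlap, as for 13.9% of all genes in this direction. Only Cul5 cKO replicate 1 stood well above the WT samples. The log2 difference was 0.15 (SE 0.0787, 95% interval 0.977-fold to 1.26-fold; edgeR adjusted p = 0.324). When levels were taken as log2 of TPM, to which WT replicate 3 contributed more short non-coding Stat3 transcripts, the difference was -0.01. Such transcripts held 15.6%, 19.9% and 34.6% of the Stat3 TPM in WT replicates 1, 2 and 3 and 13.5% to 14.6% in Cul5 cKO cells. On the authors' gene-level table the Stat3 difference was 0.0091 (limma adjusted p = 0.971). There the groups overlapped, at 8.30 to 8.56 log2 CPM in WT and 8.31 to 8.57 log2 CPM in Cul5 cKO cells.

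Stat3 is known for a long form, STAT3-alpha, and a shorter one, STAT3-beta, which lacks the end of the transactivation domain. Most Stat3 reads were assigned to Stat3-203, the long form, with 88.8% ± 1.13 (SD, n = 3) of the estimated counts in WT and 90.5% ± 0.633 (SD, n = 3) in Cul5 cKO cells. The transcript without 50 coding bases, Stat3-202, held 1.36%, 1.61% and 0.319% of the sum of these 2 transcripts in WT replicates 1, 2 and 3 and 1.61%, 1.07% and 1.43% in Cul5 cKO replicates 1, 2 and 3, with groups that overlapped. In WT replicate 3 this share rested on 3.4 estimated counts, beside 70.4 to 126 in the other samples. Stat3-202 also holds 1712 exonic bases, 0 of them coding, that no other coding Stat3 transcript has. Its share therefore does not measure the 50-base difference alone. Stat3-201, which differs from Stat3-203 by 3 coding bases, held 7.10% ± 0.679 (SD, n = 3) of their sum in WT and 6.59% ± 0.663 (SD, n = 3) in Cul5 cKO cells. The stretch that separates the long and the short form is shown in the spliced coding sequence of Stat3-203, coding positions 2125 to 2214, with the 50 bases that Stat3-202 lacks in capitals:
Stat3-203, chr11:100889521-100889905, minus strand, 2 exon blocks: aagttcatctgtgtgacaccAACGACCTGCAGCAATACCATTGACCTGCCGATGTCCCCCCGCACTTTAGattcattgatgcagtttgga

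Stat4, the factor of IL-12 and of Th1 differentiation, lies on chromosome 1 (51987148 to 52107189, plus strand; ENSMUSG00000062939), and none of its 31-base words occurs in another annotated gene. Its level was 68.4, 43.1 and 53.9 CPM in WT replicates 1, 2 and 3 and 35.4, 30.6 and 24.9 CPM in Cul5 cKO replicates 1, 2 and 3. All 3 Cul5 cKO samples were below the lowest WT sample, as for 13.5% of all genes in this direction, and the WT mean was 55.1 ± 12.7 CPM beside 30.3 ± 5.21 CPM in Cul5 cKO cells (SD, n = 3). The log2 difference was -0.86 (SE 0.191), with an unadjusted p of 0.00239, 358th in order of p among the genes tested, and an edgeR adjusted p of 0.0862. The exact two-sided permutation p was 0.1, the smallest that 3 samples against 3 can give. A difference of this size or more in either direction was found in 6.14% of the genes tested. In bulk RNA, fewer cells that express Stat4 and less Stat4 mRNA per cell cannot be told apart.

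The Stat4 estimate was stable in size and its call was not. It passed an adjusted p of 0.05 in 6 of 21 alternatives. Among these were DESeq2 (0.000925), which called 5.84% of its genes, edgeR without a filter on low counts (0.0472, 1.02% of genes called), limma voom with sample weights (0.0363, 9.74%), edgeR with replicate 1 as a term (0.00638, 13.1%) and replicates 2 and 3 alone (0.0349, 8.83%). Leaving out each sample in turn gave log2 differences from -1.03 to -0.65 and edgeR adjusted p from 0.0836 to 0.283.

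**Figure D2:**
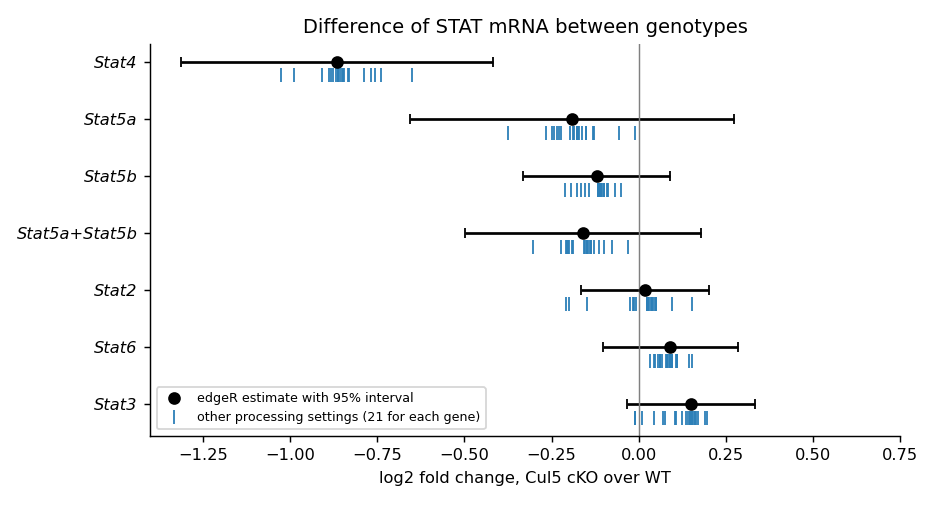
Log2 fold change of Cul5 cKO over WT for the 6 STAT genes and the Stat5a and Stat5b sum (x axis), with the edgeR estimate as a point, its 95% interval as a bar and the values under 21 other processing settings as blue ticks. The interval of Stat4, -1.31 to -0.42, is the only one that does not reach 0, and the ticks of Stat2 and Stat3 lie on both sides of 0.

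Stat4 mRNA starts at 2 places 21095 bases apart, giving Stat4-202 from the upstream and Stat4-201 from the downstream start, with the same coding sequence of 2244 bases. Stat4-202 held 76.9%, 77.9% and 83.8% of their summed estimated counts in WT replicates 1, 2 and 3 and 72.4%, 72.9% and 73.3% in Cul5 cKO replicates 1, 2 and 3. The share was lower in each Cul5 cKO sample (exact permutation p = 0.1, two-sided, the smallest possible), with WT replicate 3, the shallow library, highest. As a transcript, Stat4-202 averaged 42.6 CPM in the WT and 22.1 CPM in the Cul5 cKO samples. Its log2 difference was -0.95 (unadjusted p = 0.00464, edgeR adjusted p = 0.618 over 40261 transcripts). Stat4-201 averaged 11.1 and 8.24 CPM, with a log2 difference of -0.44 (edgeR adjusted p = 0.806). Reads can be told apart only by 166 exonic bases of Stat4-202 and 486 of Stat4-201, which lie in the leading exons except for the last few bases of Stat4-202. The 250 bases before each start are shown because the reads were assigned to both starts (RefSeq, GRCm38.p6, plus strand):
Upstream start, chr1:51986898-51987147: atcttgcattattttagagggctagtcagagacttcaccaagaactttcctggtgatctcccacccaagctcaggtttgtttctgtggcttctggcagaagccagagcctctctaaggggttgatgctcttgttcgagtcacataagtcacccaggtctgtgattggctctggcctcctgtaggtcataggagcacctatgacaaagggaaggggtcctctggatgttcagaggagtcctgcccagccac
Downstream start, chr1:52007990-52008239: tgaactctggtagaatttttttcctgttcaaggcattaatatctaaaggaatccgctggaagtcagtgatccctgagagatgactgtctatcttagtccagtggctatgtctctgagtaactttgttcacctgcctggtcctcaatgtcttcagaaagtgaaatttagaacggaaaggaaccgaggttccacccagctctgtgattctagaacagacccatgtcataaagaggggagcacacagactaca

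STAT dimers are known to bind TTCNNNGAA, and STAT6 prefers TTCNNNNGAA. Both motifs read alike on either strand, do not overlap each other in these windows, and were searched from 250 bases before to 50 bases after each start in the 9 RefSeq promoters of the 6 genes. TTCNNNGAA was found in none of the 9, where 8.30% of 32851 mouse promoters hold it. TTCNNNNGAA was found in 1, that of Stat2, at 210 bases before the start, where 6.95% of all promoters hold it. A match is a description of the sequence and the lack of one says only that these letters are not in the window.

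Stat2, which carries the type I interferon signal together with IRF9, lies on chromosome 10 (128270559 to 128292849, plus strand; ENSMUSG00000040033). Its level was 32, 30.3 and 33.7 CPM in WT replicates 1, 2 and 3 and 32.2, 33.7 and 30.9 CPM in Cul5 cKO replicates 1, 2 and 3. The groups overlapped almost fully, with a log2 difference of 0.02 (SE 0.0784, 95% interval 0.893-fold to 1.15-fold; edgeR adjusted p = 0.918). Its partner Irf9 was at 34.5 to 37.7 CPM in WT and 32.4 to 37.6 CPM in Cul5 cKO cells (log2 difference -0.01, edgeR adjusted p = 0.970). The sign of the Stat2 difference turned with the scaling, to -0.02 with library size alone and -0.21 on log2(TPM + 0.1). That of Irf9 turned in 7 of 21 alternatives, among them DESeq2 (0.0089) and libraries thinned to the depth of WT replicate 3 (0.07). Non-coding forms with a retained intron held 8.76%, 16.0% and 27.3% of the Stat2 estimated counts in WT replicates 1, 2 and 3 and 7.93%, 11.7% and 11.3% in the Cul5 cKO replicates, so WT replicate 3 again stood apart. Among them Stat2-203 had the share of TPM that was lower in every Cul5 cKO sample, at 14.1% to 17.3% in WT and 7.34% to 11.4% in Cul5 cKO cells, from at most 14.1 estimated counts in a sample.

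**Figure D3:**
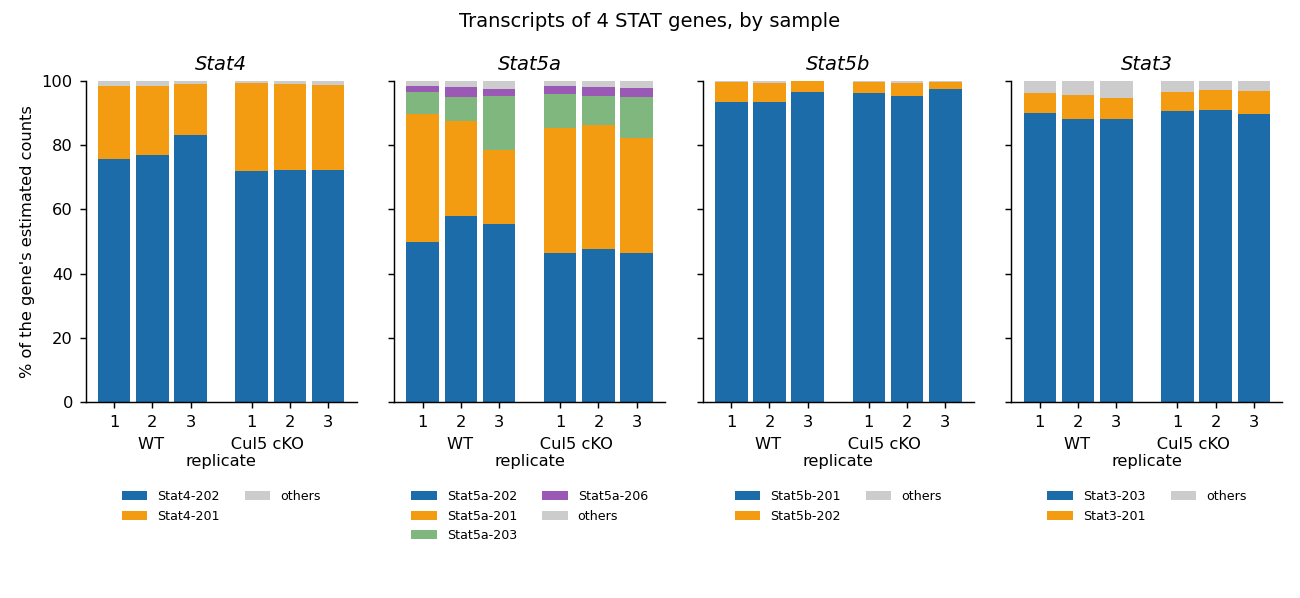
Share of each gene's estimated counts (y axis, %) held by its main transcripts in every sample (x axis) for Stat4, Stat5a, Stat5b and Stat3, with the remaining transcripts in grey. Stat4-202 holds 75.8% to 83.2% in WT and 71.9% to 72.4% in Cul5 cKO cells, and Stat5a-202 49.9% to 58.0% and 46.3% to 47.6%.

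Of the 41 STAT transcripts 29 passed the expression filter. EdgeR called none of these, and none of all 40261 transcripts tested (0%). At an unadjusted p under 0.05, 2 of the 29 passed, Stat4-202 and Stat5b-202, beside 6.6% of all transcripts. Stat5b-202, with a share of its gene under the 5% set for naming, was chosen here after its values were seen (log2 difference -0.75, unadjusted edgeR p of 0.0413, adjusted p of 0.749). Limma on log2(TPM + 0.1) called none of the named transcripts either. Shares of the gene's TPM did not overlap between the groups for 5 of 19 named transcripts, beside 11.3% of all transcripts that hold such a share: Stat2-203, Stat3-203, Stat4-201, Stat4-202 and Stat5a-202. Stat4-201 and Stat4-202 hold most of the same gene's TPM, so their shares do not move independently. As a share of estimated counts Stat3-203 overlapped, at 88.2% to 90.1% in WT and 89.8% to 91.1% in Cul5 cKO cells. Stat5a-202, the main form of Stat5a, held 43.4%, 46.4% and 47.1% of the Stat5a TPM in WT replicates 1, 2 and 3 and 39.3%, 38.8% and 37.7% in Cul5 cKO replicates 1, 2 and 3. It encodes the same 2379 coding bases as Stat5a-201, whose start lies 305 bases away and which held 18.7% to 33.1% in WT and 28.1% to 31.5% in Cul5 cKO cells. Stat5a-203, with 2391 coding bases, held 6.31% to 14.8% in WT and 7.65% to 10.96% in Cul5 cKO cells, and the short Stat5a-206 14.5% to 21.3% and 17.1% to 20.1%. Each exact permutation p for these shares was at or above 0.1.

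To compare levels between genes, the deposited TPM, which scale each transcript by its length, were summed by gene. Stat5a stood highest at a mean of 243.3 TPM (180.1 to 345.5 over the 6 samples), followed by Stat3 at 123.0 TPM (112.7 to 138.5), Stat5b at 120.9 TPM (109.8 to 146.3), Stat6 at 91.8 TPM (78.5 to 101.1), Stat4 at 23.7 TPM (13.5 to 38.1) and Stat2 at 18.2 TPM (15.5 to 22.2). Stat5a was above Stat3 in all 6 samples, Stat5b above Stat6 in all 6 and Stat6 above Stat4 in all 6. Stat3 and Stat5b could not be ordered, with Stat3 higher in 3 of 6 samples, nor could Stat4 and Stat2, with Stat4 higher in 4 of 6. In coding transcripts alone Stat4 was above Stat2 in all 6 samples and Stat3 above Stat5b in 1.

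**Figure D4:**
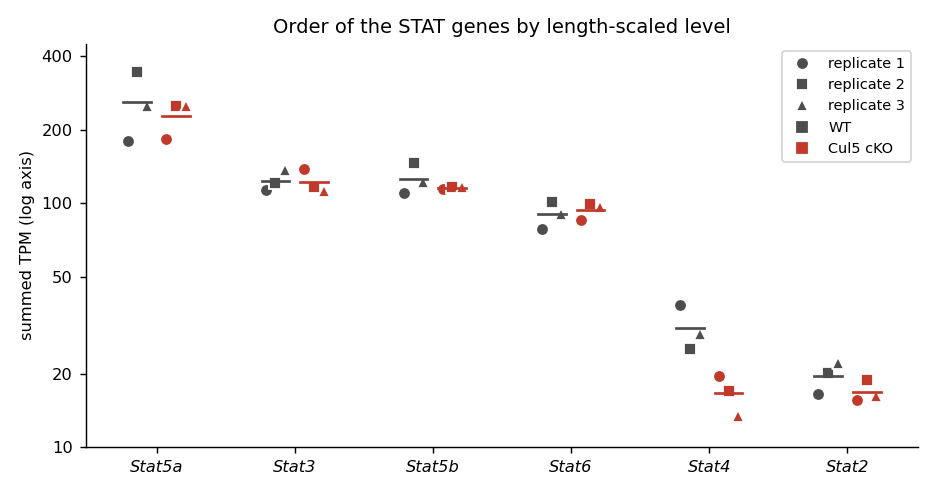
Summed TPM (y axis, log scale) of each STAT gene in the WT (grey) and Cul5 cKO (red) samples, with lines at the group means and 1 symbol for each replicate number, ordered by the mean over all 6. Stat5a lies at 180.1 to 345.5 TPM and Stat2 at 15.5 to 22.2 TPM, and Stat4 is the one gene whose groups are apart, at 25.3 to 38.1 TPM in WT and 13.5 to 19.5 TPM in Cul5 cKO cells.

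Within the summed TPM of the 6 genes, Stat5a and Stat5b together made up 58.7% ± 5.49 (SD, n = 3) in WT and 57.8% ± 3.79 (SD, n = 3) in Cul5 cKO cells (exact permutation p = 0.900). Stat3 held 19.3% ± 2.94 and 20.8% ± 3.55 (exact permutation p = 0.600) and Stat2 3.04% ± 0.382 and 2.84% ± 0.186 (exact permutation p = 0.600). The Stat4 share was 7.11%, 3.33% and 4.47% in WT replicates 1, 2 and 3 and 3.50%, 2.74% and 2.23% in Cul5 cKO replicates 1, 2 and 3, so that the groups overlapped in this measure (exact permutation p = 0.200). The Stat6 share was 14.6%, 13.3% and 13.9% in WT and 15.4%, 16.1% and 15.9% in Cul5 cKO cells, with no overlap (exact permutation p = 0.1, the smallest possible). The Stat6 TPM themselves overlapped, at 78.5 to 101.1 in WT and 85.5 to 99.4 in Cul5 cKO cells. The shares sum to a fixed total, so a lower share of 1 gene raises the others.

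Over the 6 samples, Stat5a and Stat5b followed each other most closely among the STATs (Pearson r = 0.901 of log2 CPM), which includes any reads moved between them by estimate, and Stat4 and Stat6 ran most opposite (r = -0.835). A likeness was computed against 8682 genes that averaged 10 CPM or more. The gene most like Stat6 was Heatr1 (r = 0.999), and 528 genes had an r above 0.9 with it. The most alike were Trim39 for Stat5a (r = 0.994, 314 genes above 0.9), Sp1 for Stat5b (r = 0.992, 197 genes), Bcr for Stat3 (r = 0.987, 81 genes), St8sia4 for Stat4 (r = 0.994, 261 genes) and Wdr41 for Stat2 (r = 0.949, 4 genes). These are descriptions over 6 samples that share the split between replicate 1 and the others, and with so few samples many genes reach such values.

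The genes around the STATs were grouped in 8 lists: the JAKs, the receptor chains, the inhibitors, and for STAT5, STAT6, STAT3, STAT4 and STAT2 a list of known target genes. Of their 92 genes 82 were tested, and 5 rose and 1 fell in Cul5 cKO cells, beside 0.611% and 0.418% of all genes tested. The lists were written with earlier results of these data known, so their shares of called genes cannot be read as enrichment. None of the 82 was called when WT replicate 2, WT replicate 3 or replicate 3 of the Cul5 cKO group was left out, and at most 9 when another sample was. The median log2 difference over the 82 genes was 0.08, beside -0.01 over all genes. At an unadjusted p under 0.05, 26 passed (19 higher, 7 lower), beside 21.3% of all genes.

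None of the 4 JAKs, the kinases that phosphorylate STATs, was called (median log2 difference -0.07, which turned to 0.027 without WT replicate 2 and 0.012 when replicate 1 of the Cul5 cKO group was left out). At an unadjusted p under 0.05, 1 was higher and 1, Jak1, lower, beside 21.3% of all genes. The higher one, named after its values were seen, was Jak3. It was at 220.2 to 223.4 CPM in WT and 256.8 to 283.4 CPM in Cul5 cKO cells (log2 difference 0.26, edgeR adjusted p = 0.0937). Jak1, which serves the IL-4 and IL-2 receptors, was at 407.4, 413.1 and 440.6 CPM in WT and 381.4, 349.9 and 330.8 CPM in Cul5 cKO cells. The Jak1 groups did not overlap, as for 13.5% of all genes in the lower direction. Its log2 difference was -0.25 (SE 0.0709, edgeR adjusted p = 0.124). Jak1 passed with limma voom and sample weights (adjusted p = 0.0296, 9.74% of genes called). In edgeR it passed with replicate 1 as a term (adjusted p = 0.0489, 13.1%) and in replicates 2 and 3 alone (0.0392, 8.83%). Of 18 receptor chains tested (median -0.13), 1 rose: Il12rb1, a chain of the IL-12 and IL-23 receptors upstream of STAT4 and STAT3, from 28.1 ± 0.782 to 42.8 ± 4.77 CPM (SD, n = 3; log2 difference 0.60, edgeR adjusted p = 0.0435). The Il12rb1 call was lost in 11 of 21 alternatives, among them the authors' gene-level table (limma adjusted p = 0.161) and 5 of the 6 fits that left out a sample. Its partner chain for IL-12, Il12rb2, which is named after its values were seen, was at 1.24 to 5.81 CPM in WT and 0.551 to 3.25 CPM in Cul5 cKO cells (edgeR adjusted p = 0.448). At an unadjusted p under 0.05, 2 chains were lower and 1, Il12rb1, higher, beside 21.3% of all genes. The lower ones, also named after their values were seen, were Il9r (log2 difference -1.55, edgeR adjusted p = 0.0852) and Ifnar1 (-0.35, edgeR adjusted p = 0.0907). In both, the groups did not overlap, as for 13.5% of all genes in this direction. Il4ra, the IL-4-binding chain upstream of STAT6, was at 517.3 to 711.4 CPM in WT and 435.2 to 641.3 CPM in Cul5 cKO cells (log2 difference -0.25, edgeR adjusted p = 0.454). Its groups overlapped (exact permutation p = 0.3, two-sided). With replicate 1 as a term, where 13.1% of all genes were called, Il4ra passed (log2 difference -0.26, edgeR adjusted p = 0.0397). None of 15 inhibitors was called (median 0.01). Of these, 4, among them Socs1, were higher and 1 lower at an unadjusted p under 0.05, beside 21.3% of all genes. Cish, which encodes CIS and is itself induced by STAT5, was at 612.4 to 639.8 CPM in WT and 660.9 to 714.3 CPM in Cul5 cKO cells (log2 difference 0.12, edgeR adjusted p = 0.277), and Socs1 at 198.7 to 218.0 and 233.4 to 258.2 CPM (log2 difference 0.23, edgeR adjusted p = 0.123). Socs1 passed with DESeq2 (adjusted p = 0.0397, 5.84% of genes called), limma voom (0.0420, 9.74%) and replicate 1 as a term in edgeR (0.0314, 13.1%).

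Of 14 STAT5 targets of the IL-2 response (median 0.21), Lif, a cytokine of the IL-6 family, rose from 56.0 ± 3.63 to 103.8 ± 12.5 CPM (SD, n = 3; log2 difference 0.89, edgeR adjusted p = 0.0170). Pim2, a survival kinase, fell from 55.9 ± 3.79 to 36.9 ± 3.20 CPM (SD, n = 3; log2 difference -0.60, edgeR adjusted p = 0.0347). Of the 14, 1 was called higher and 1 lower, beside 0.611% and 0.418% of all genes tested. Without adjustment, 5 of the 14 were higher and 2 lower at p under 0.05, beside 21.3% of all genes. The Pim2 call was lost in 11 of 21 alternatives, among them the authors' gene-level table (limma adjusted p = 0.1) and 5 of the 6 fits that left out a sample, and the Lif call in 4 of 21, all of them such fits. Of 13 STAT6 targets of the IL-4 response 3 rose, and at an unadjusted p under 0.05 there were 7 higher and 1 lower, beside 21.3% of all genes. Their median log2 difference of 0.39 was 0.19 with at least 10 counts in every sample, 0.21 in thinned libraries, 0.23 on the authors' table and 0.25 without WT replicate 3. The lower one, named after its values were seen, was Gata3, the Th2 master regulator (log2 difference -0.16, edgeR adjusted p = 0.232). Higher but not called, and also named after their values were seen, were Il10 (1.91, edgeR adjusted p = 0.11) and Batf (0.39, 0.112). So was Il4 (1.57, edgeR adjusted p = 0.122), at only 0.506 to 0.606 CPM in WT and 0.869 to 2.41 CPM in Cul5 cKO cells. Il24, a cytokine of the IL-10 family, was at 2.43, 1.08 and 1.01 CPM in WT and 18.4, 16.5 and 18.1 CPM in Cul5 cKO cells (log2 difference 3.41, edgeR adjusted p = 0.0105). Maf, a transcription factor of Th2 and IL-10-producing cells, rose from 31.7 ± 5.58 to 66.0 ± 3.82 CPM (SD, n = 3; log2 difference 1.08, edgeR adjusted p = 0.0185), and Ccr8, a chemokine receptor, from 288.1 ± 33.5 to 437.5 ± 8.68 CPM (SD, n = 3; log2 difference 0.60, edgeR adjusted p = 0.0298). Among the alternatives, the call was lost in 3 of 20 for Il24, 6 of 21 for Maf and 9 of 21 for Ccr8, in each case also when WT replicate 2, WT replicate 3 or replicate 3 of the Cul5 cKO group was left out. The 10 other STAT6 targets, among them Il4ra and Socs1, did not pass.

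None of the 10 STAT3 targets (median 0.33), 9 STAT4 targets (median 0.46) or 8 STAT2 targets (median -0.06) was called. At an unadjusted p under 0.05, 3 of the 10 STAT3 targets were higher and none lower, and 2 of the 9 STAT4 targets were higher and none lower, shares near the 21.3% of all genes that passed. No STAT2 target passed this threshold. Ifng, the best known STAT4 target, was at 0.128, 0.822 and 0.253 CPM in WT and 0.0869, 1.45 and 4.45 CPM in Cul5 cKO cells, in cultures that held anti-IFN-γ (edgeR adjusted p = 0.347). The values of WT replicates 1 and 3 and of Cul5 cKO replicate 1 lay at or under 3 counts. Ifng is named here outside the rule for naming.

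**Figure D5:**
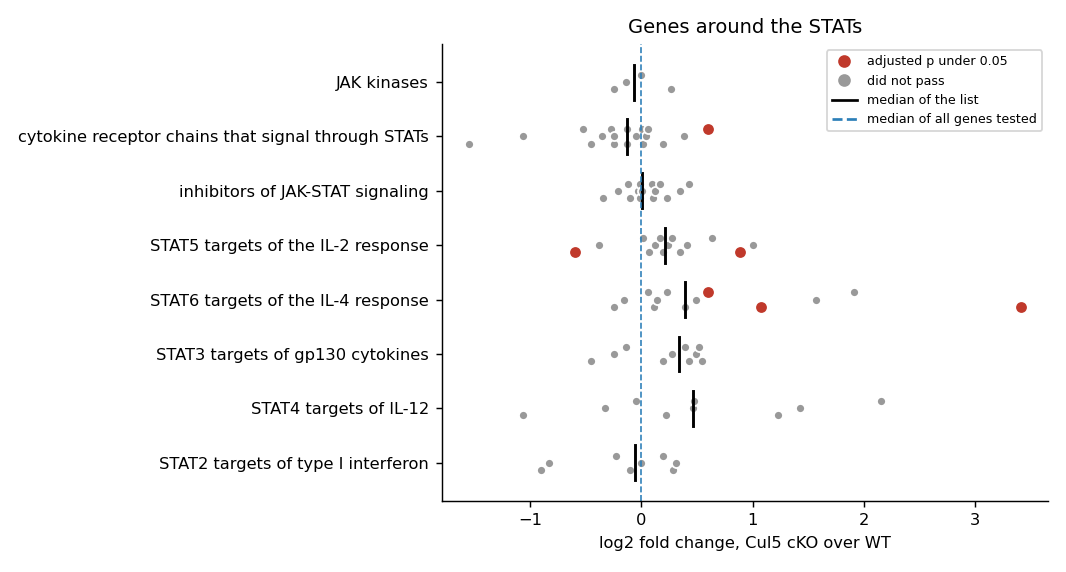
Log2 fold change of Cul5 cKO over WT (x axis) for each tested gene of the 8 lists (rows), with genes at an adjusted p under 0.05 in red, the others in grey, the median of each list as a black line and that of all genes as a dashed line. The 6 called genes lie in the rows of receptor chains, STAT5 targets and STAT6 targets, with Il24 farthest right at 3.41.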

How the data were processed

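Reads (50 bases, single-end, poly-A) were pseudo-aligned by the authors (kallisto 0.46.2, Ensembl mouse transcripts, GRCm38), who deposited estimated counts, not normalized, and TPM for 119414 transcripts in each of 6 samples. Their gene-level table, deposited as TMM-normalized log2 CPM (edgeR 3.34.0), was used as an alternative. Its columns of fold changes and p-values were not used. Transcripts were summed by gene with GENCODE vM21 (97.68% matched), and the sums were rounded and tested with edgeR 4.0.16 in R 4.3.3 (default expression filter, TMM, genotype as the only term), with DESeq2 1.42.0 and limma 3.58.1 as alternatives. Scripts were tested on simulated counts. Depth sets precision: 3 counts equal 0.759 CPM in WT replicate 3 and 0.128 to 0.133 CPM elsewhere. Permutation tests were exact and two-sided. Figures used matplotlib 3.10.9 in Python 3.11.15.

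The genes, the lists, the alternatives and the naming rule were chosen with earlier results of these data known. Named were the 6 genes and their transcripts with at least 5% of the gene's TPM, Cul5, every called gene of the lists, Jak1, Il4ra, Cish, Socs1 and Irf9, and the gene most correlated with each member. An alternative with protein-coding transcripts only was added after seeing the data.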

Additional observations from a re-analysis of the deposited data

How the results depend on the processing

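The number of genes called (133) was 748 with DESeq2, 228 without a filter beyond 1 count, 62 with counts scaled from TPM, 27 on log2(TPM + 1), 30 on log2(TPM + 0.1), 1259 with voom and sample weights, 1688 with replicate 1 as a term, 1153 in replicates 2 and 3 alone, 42 on the authors' gene-level table, 84 with protein-coding transcripts only (added after seeing the data) and 2753 at an unadjusted p under 0.05. Leaving out 1 sample gave 2 to 316 calls. WT replicate 1 left out gave 316, and WT replicates 2 and 3, each left out alone, gave 2 apiece. Among the Cul5 cKO samples, 45 were called when replicate 2 was left out and 3 when replicate 3 was. The genes of the 8 lists called (6) were 16 with DESeq2, 3 with counts scaled from TPM, 2 on each log2 TPM scale, 18 with voom, 28 with the replicate 1 term, 19 in replicates 2 and 3, 3 on the authors' table and 26 unadjusted. On leaving out 1 sample they were 0 to 9, with 0 when WT replicate 2 or 3 was dropped or replicate 3 of the Cul5 cKO group, and 3 and 2 when replicates 1 and 2 of that group were. Of the 6 STAT genes 1, Stat4, was called with DESeq2 (-0.85), without the filter (-0.84), with voom (-0.76), with the replicate 1 term (-0.83), in replicates 2 and 3 (-0.77) and unadjusted, and none on leaving out any 1 sample (-1.03 to -0.65). Over its 21 alternatives the adjusted p of Stat4 ran from 0.000925 to 0.283. The cause of these differences in calls was not tested.

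With the replicate number as a block (replicate block), 848 genes, 19 list genes and 1 STAT gene, Stat4 (-0.83, edgeR adjusted p = 0.0138), were called. Same-numbered samples correlated at 0.37, 0.206 and 0.0245 in their deviations, and WT replicate 3 correlated best with Cul5 cKO replicate 2 (0.0914), so the numbers were not taken to pair the samples. The block turned the sign of Irf9 (0.0026), Stat5a-203 (0.023) and Stat5a-206 (0.035), none of them called.

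Other signs turned only in differences that were not called. Stat2 was -0.024 with library size only, -0.15 with counts scaled from TPM, -0.20 and -0.21 on log2(TPM + 1) and log2(TPM + 0.1), -0.013 in libraries thinned to WT replicate 3 and -0.017 to 0.051 on leaving out 1 sample. Stat3 was -0.011 on both TPM scales. Cish was -0.027 on both and -0.0066 on the authors' table. Irf9 was 0.0089 with DESeq2, 0.0097 without the filter, 0.070 in thinned libraries, 0.0036 with protein-coding transcripts and -0.053 to 0.051 on leaving out 1 sample. Stat6-204 was 0.026 without the filter. On leaving out 1 sample Stat5a-203 ran from -0.39 to 0.41, Stat5a-206 from -0.31 to 0.46, Stat5b-201 from -0.11 to 0.051, Stat6-204 from -0.30 to 0.26 and Stat6-205 from -0.43 to 0.18.

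List medians moved as follows. The JAKs went to -0.14 on the authors' table and -0.16 to 0.027 on leaving out 1 sample. The receptor chains went to -0.17 with library size only, -0.074 with counts scaled from TPM, -0.19 in thinned libraries, -0.16 with protein-coding transcripts and -0.044 on the authors' table. The inhibitors went to -0.037 with library size only, -0.027 on both TPM scales and -0.012 to 0.11 on leaving out 1 sample. The STAT6 targets went to 0.19 with at least 10 counts in every sample, 0.21 in thinned libraries, 0.23 on the authors' table and 0.25 to 0.49 on leaving out 1 sample. The STAT3 targets ran from 0.21 to 0.40 on leaving out 1 sample. The STAT2 targets went to 0.19 with at least 10 counts in every sample and 0.22 with protein-coding transcripts. As shares of estimated counts, the differences were 0.112 points for Stat2 among the STATs, -0.968 for Stat2-203, 1.31 for Stat2-207 and 1.68 for Stat3-203. In replicates 2 and 3 alone they were 2.36 points for Stat6 among the STATs and 10.7 for Stat2-207. WT replicate 3 had the lowest total, so its low-count transcript values carry the largest counting error.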
